A study of Mus musculus with 12 samples.

Results

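The 43 genes described here encode actin, nonmuscle myosin II, the proteins that bind, crosslink and turn over actin filaments, and the transcription factor SRF with its coactivators. They were named by symbol as genes of the actin cytoskeleton. The deposited table lists 21671 genes, of which 41 members matched by their own symbol and Diaph1 and Diaph3 by the older symbols Diap1 and Diap3. A test was possible for 42 members. Actg2, the smooth muscle gamma-actin, was listed with the authors' mean of only 4.31 to 4.96 normalized counts and was not tested.

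The cells were 3T9 MycER;YAP fibroblasts, an immortalized line of mouse embryonic fibroblasts. All of them constitutively expressed MycER, a Myc protein fused to a hormone-binding domain that stays inactive until 4-hydroxytamoxifen (OHT) is added, and all carried a retroviral vector that expresses the activated mutant YAP S127A when doxycycline (dox) is given. According to the study, the cultures were serum-starved and highly confluent. The 4 groups were OHT (400 nM, active MycER), dox (2 µg/ml, YAP S127A), OHT+dox (both agents at those doses) and mock (neither agent), with 3 libraries each. The labels name replicates without saying whether they were separate cultures, so p-values measure only how these libraries scatter, and that scatter may be technical. Cells lacking the vector or MycER were not analysed here, so an effect of either drug itself cannot be told apart from that of the protein it switches on.

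Actin monomers hold the coactivators Mkl1 and Mkl2 (also named MRTF-A and MRTF-B) in the cytoplasm. When signaling through the formins and the Rock kinases drives monomers into filaments, Mkl1 and Mkl2 enter the nucleus and, with SRF, switch on genes with a CArG box, many of which encode actin and actin-binding proteins. YAP answers to the same filament tension and works through TEAD factors, whereas Myc binds E-boxes with its partner Max. In fibroblasts these genes make the stress fibers and focal adhesions through which a cell pulls on its neighbours and its matrix.

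The table holds no value for a single library and no read totals, so each level below is a group mean in normalized counts (reads divided by a size factor for each library) with its standard error (SE, n = 3 libraries), recovered from the deposited means and comparisons. Adjusted p-values are from two-sided Wald tests with Benjamini-Hochberg adjustment over 12259 genes, and a gene is said to rise or fall where that value is under 0.05. The summed mean normalized counts of all genes were 8104002 to 8224121 a group, of which the members took 0.98% in OHT, 1.07% in dox, 1.01% in OHT+dox and 1.03% in mock cells. Ncl, the nucleolar protein nucleolin and a known Myc target, rose by 0.94 on the log2 scale in OHT against mock cells (adjusted p = 1.5e-18) and by 0.45 in dox against mock cells (adjusted p = 0.000284). Ctgf, a known YAP target, rose by 0.64 in dox against mock cells (adjusted p = 8.27e-11) and fell by 0.32 in OHT against mock cells (adjusted p = 0.00315). Of 10 fibroblast markers 8 were tested, and the other 2, Thy1 and Lum, were under 5 normalized counts. All 4 epithelial and all 4 endothelial markers were under 5. Of 7 skeletal and cardiac muscle markers 5 were under 5, but Ttn, the giant sarcomere protein titin, rose by 0.59 with OHT against mock (adjusted p = 0.0197) and by 0.73 with OHT+dox against mock (adjusted p = 0.00121). Of the fibroblast markers, the PDGF receptors Pdgfra and Pdgfrb fell with OHT+dox against mock, by 0.83 (adjusted p = 6.08e-06) and 0.39 (adjusted p = 1.38e-06), and Pdgfrb fell by 0.19 with OHT (adjusted p = 0.045). The other 6 (Vim, Dcn, Col1a1, Col1a2, Col3a1 and Fn1) were called in no comparison with mock and lay between -0.25 and 0.02 with OHT+dox. Of the smooth muscle markers only Smtn, smoothelin, was tested, and it fell by 0.42 with OHT (adjusted p = 8.03e-05) and by 0.29 with OHT+dox (adjusted p = 0.00603). The part of these markers in the results below was not tested. In such bulk samples, fewer cells of a kind and less RNA per cell cannot be told apart.

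The CArG box marks the promoters to which SRF binds, and many cytoskeleton genes are known to carry it. In RefSeq promoter windows of 300 bases, 250 before and 50 after a gene's start (mouse build GRCm38.p6), 38 members had an entry, and Actb, Actg2, Tagln, Diaph1 and Rock1 had none. A CArG box (named here without its degenerate letters, searched on both strands) stood in the windows of 8 of the 38 members, or 21.1%, against 1.81% of 27025 genes. The hexamer GGAATG, the core TEAD site, stood in 13 of 38 members (34.2%) against 16.6% of genes. The E-box CACGTG stood in the windows of 2 members, Actg1 and Myl12a (5.26%), against 8.09% of genes. Members were named as genes of the actin cytoskeleton and SRF, many of them known to carry a CArG box. Their larger share of CArG boxes can therefore come from that choice. The windows around the CArG boxes are shown because a larger share of members than of all genes holds one. Each is written 5′ to 3′ on the gene's own strand, upstream of the start, with the box in capitals.
Srf (chr17:46556210-46556269, - strand): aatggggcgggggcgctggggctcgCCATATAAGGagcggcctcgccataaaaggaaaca
Vcl (chr14:20929148-20929205, + strand): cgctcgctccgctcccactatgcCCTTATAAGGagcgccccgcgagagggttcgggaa
Actg1 (chr11:120348551-120348610, - strand): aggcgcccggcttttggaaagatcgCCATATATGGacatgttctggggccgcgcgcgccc
Cnn2 (chr10:79988519-79988578, + strand): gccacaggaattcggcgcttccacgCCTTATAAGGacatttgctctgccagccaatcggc
Myl9 (chr2:156775278-156775337, + strand): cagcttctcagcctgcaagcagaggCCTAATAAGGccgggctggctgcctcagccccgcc
Myl6 (chr10:128493025-128493084, - strand): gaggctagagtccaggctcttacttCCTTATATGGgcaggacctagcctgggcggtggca
Fhl2 (chr1:43196823-43196882, - strand): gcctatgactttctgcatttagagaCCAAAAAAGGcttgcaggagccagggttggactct
Fhl2 (chr1:43163962-43164017, - strand): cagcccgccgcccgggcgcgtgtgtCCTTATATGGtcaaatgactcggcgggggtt
Fhl1 (chrX:56779556-56779615, + strand): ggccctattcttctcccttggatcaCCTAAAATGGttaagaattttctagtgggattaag
Srf holds a further box in the same stretch, and Fhl2 has boxes before separate starts. The 50 bases after the Fhl1 start were found in no GENCODE transcript of that gene, unlike those of the other windows shown here. That start is therefore less certain. A match describes letters in a window, and SRF binding was not measured in these libraries.

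With MycER activation alone, few of the cytoskeleton genes passed the test. In OHT against mock cells 1 of 42 members rose and 1 fell, 4.76% of members, while 21.6% of all tested genes were called (12.7% higher and 8.95% lower). Limk1, the LIM kinase that phosphorylates and so blocks the filament-severing protein cofilin, was the member that rose, 2.12-fold. Pdlim7, a PDZ and LIM domain adaptor on stress fibers, was the one that fell, to 0.80 of its mock level. The median log2 fold change of the members was -0.07, against -0.01 over all genes, and 34 members (81.0%) had a 95% interval that lay wholly within 0.5 log2 of no change, against 53.9% of all genes.

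With YAP S127A alone, 3 members passed the test. In dox against mock cells 2 rose and 1 fell, 7.14% of members, against 10.9% of all tested genes (6.32% higher and 4.58% lower). Fscn1, which bundles parallel filaments in protrusions, rose 1.22-fold (log2 0.29 ± 0.09 SE, adjusted p = 0.0205), and Rock2, a kinase that drives myosin contraction, rose 1.18-fold (0.24 ± 0.07, adjusted p = 0.0109). Myh10, the heavy chain of nonmuscle myosin IIB, fell to 0.87 of its mock level (-0.21 ± 0.07, adjusted p = 0.041). No member changed by more than 0.5 log2, and 37 (88.1%) had an interval within that limit, against 59.9% of all genes.

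With OHT and dox together, 7 members passed the test, 2 up and 5 down. That is 16.7% of members, against 40.0% of all tested genes (20.8% higher and 19.2% lower). Limk1 rose 2.82-fold and Srf 1.19-fold. Pdlim7, Mkl2, Mylk, Ssh1 and Pdlim5 fell, to between 0.67 and 0.87 of their mock levels. The members' median was 0.01, against -0.01 for all genes, and 33 (78.6%) had an interval within 0.5 log2, against 43.3% of all genes. Over the comparisons with mock, 10 members were called at least once and 32 never, where 42.8% of all genes were called at least once. The median SE of a member's fold change was 0.09, against 0.12 over all genes, so precision was not lower for the members. Smaller SEs by themselves put more intervals within 0.5 log2, so the larger shares of member intervals there do not show that members changed less. For the interaction, described below, no gene was called, and the shares were 85.7% of members and 58.8% of all genes.

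**Figure D1:**
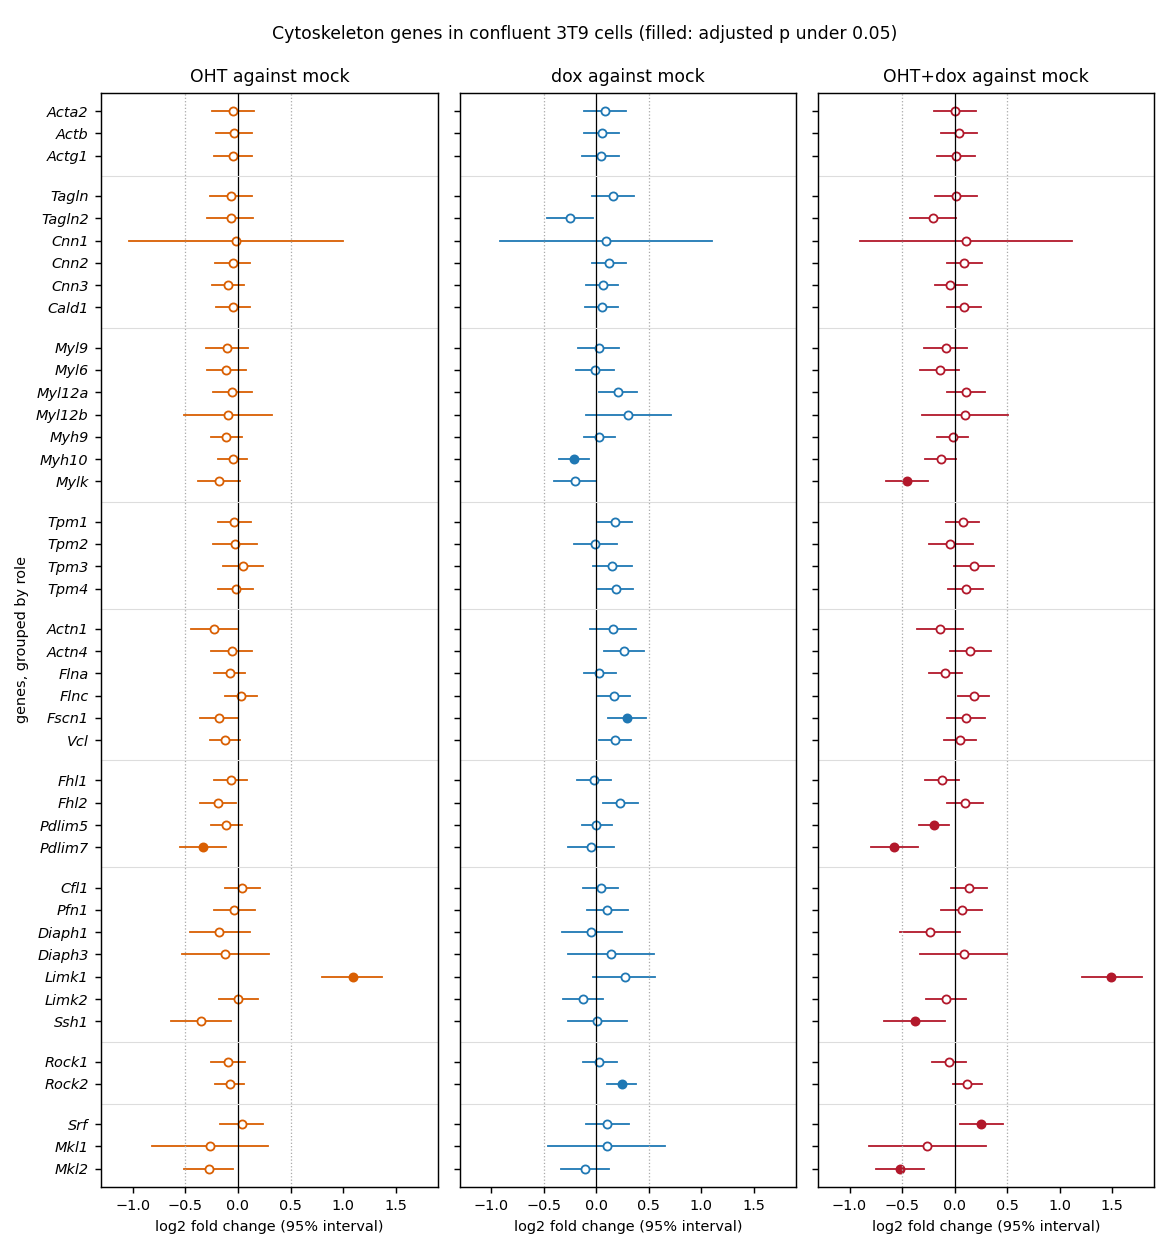
Log2 fold change of the 42 tested members in OHT, dox and OHT+dox against mock cells (points, with 95% intervals as lines), grouped by role from actin isoforms at the top to transcription factors at the bottom. Filled points passed the test, and dotted lines mark 0.5 log2. Limk1 stands alone at 1.09 with OHT and 1.49 with OHT+dox, and most other intervals lie between the dotted lines.

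Limk1 was the only member that changed by more than 0.5 log2 upward in a comparison with mock. Its level was 367 ± 24.9 normalized counts in OHT cells, 208 ± 15.2 in dox cells and 487 ± 32.2 in OHT+dox cells, against 173 ± 13 in mock cells. The groups with OHT were the high ones. The log2 fold change was 1.09 ± 0.15 SE for OHT against mock (adjusted p = 7.76e-12) and 1.49 ± 0.14 for OHT+dox against mock (adjusted p = 5.4e-23). For dox against mock it was 0.27 with a 95% interval of -0.03 to 0.56 (adjusted p = 0.282), and among the alternatives run it was called only with the narrower SEs described with the interaction (adjusted p = 0.038). OHT+dox cells exceeded dox cells by 1.22 ± 0.14 (adjusted p = 1.55e-15), and their excess over OHT cells, 0.41 ± 0.14, missed the threshold (adjusted p = 0.0567). Limk2, the other LIM kinase, was at 680, 620 and 641 normalized counts in OHT, dox and OHT+dox cells, against 678 in mock cells, and was called in none of these comparisons. RefSeq gives Limk1 a pair of starts on chromosome 5, and because Limk1 carried the largest change the 250 bases before each are printed, 5′ to 3′ on the gene's strand, with the upstream start in the first line.
Limk1 (chr5:134688591-134688840, - strand): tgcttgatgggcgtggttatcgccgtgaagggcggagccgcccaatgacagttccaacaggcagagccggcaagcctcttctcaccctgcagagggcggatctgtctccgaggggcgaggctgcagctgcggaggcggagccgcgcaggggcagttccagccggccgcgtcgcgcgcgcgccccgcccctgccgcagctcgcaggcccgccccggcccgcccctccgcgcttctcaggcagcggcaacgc
Limk1 (chr5:134678249-134678498, - strand): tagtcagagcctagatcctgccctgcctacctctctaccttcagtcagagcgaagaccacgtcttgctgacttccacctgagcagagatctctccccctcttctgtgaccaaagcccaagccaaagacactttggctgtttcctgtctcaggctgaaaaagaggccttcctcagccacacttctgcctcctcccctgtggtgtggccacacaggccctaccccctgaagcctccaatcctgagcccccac
The first stretch is 73.6% G and C and the second 57.2%. Neither full window held a CArG box, GGAATG or CACGTG on either strand.

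A kinase and a phosphatase that act on cofilin changed in opposite directions with OHT+dox, Limk1 upward and Ssh1 downward. Ssh1, the Slingshot phosphatase that reactivates cofilin by removing the phosphate that LIM kinases add, was at 391 ± 28.3 normalized counts in OHT cells, 503 ± 35.6 in dox cells and 384 ± 27.7 in OHT+dox cells, against 500 ± 35.4 in mock cells. It was low in the groups with OHT and level in the others. It fell with OHT+dox against mock (-0.38 ± 0.15, adjusted p = 0.0259) and against dox (-0.39 ± 0.15, adjusted p = 0.0385). With OHT alone the difference missed the threshold (-0.35 ± 0.15, adjusted p = 0.0671). Cfl1, cofilin itself, was at 1339, 1335 and 1432 normalized counts in OHT, dox and OHT+dox cells, against 1298 in mock cells, and its widest 95% interval against mock ended at 0.31. Pfn1, profilin, which feeds monomers to growing filaments, lay between -0.04 and 0.10 log2 of mock. The formins Diaph1 and Diaph3, which elongate unbranched filaments, were not called, with SEs of 0.14 to 0.15 for Diaph1 and 0.21 for Diaph3. Diaph3 was counted at 93.3 to 111, and its 95% intervals against mock reached from -0.53 to 0.30 with OHT and from -0.27 to 0.55 with dox.

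None of the tested actins passed the test in any comparison. Actb, cytoplasmic beta-actin, had 2753 ± 118 normalized counts in OHT cells, 2924 ± 125 in dox cells and 2899 ± 124 in OHT+dox cells, against 2823 ± 120 in mock cells. Actg1, cytoplasmic gamma-actin, had 1945 ± 86.7, 2067 ± 91.9 and 2022 ± 90 in OHT, dox and OHT+dox cells, against 2012 ± 89.5 in mock cells. Acta2, smooth muscle alpha-actin and the usual marker of activated fibroblasts, had 1212 ± 60.5, 1327 ± 66 and 1252 ± 62.4 in these groups, against 1254 ± 62.5 in mock cells. In each of the 3 genes the dox mean was the highest and the OHT mean the lowest, and these differences did not pass the test. Against mock, Actb differed by -0.04 with OHT (adjusted p = 0.829), 0.05 with dox (adjusted p = 0.813) and 0.04 with OHT+dox (adjusted p = 0.763), each ± 0.09. Actg1 differed by -0.05 (adjusted p = 0.776), 0.04 (adjusted p = 0.871) and 0.01 (adjusted p = 0.955), also ± 0.09, in the same order. Acta2 differed by -0.05 (adjusted p = 0.8), 0.08 (adjusted p = 0.72) and -0.00 (adjusted p = 0.987), each ± 0.10. The widest of these 9 intervals reached from -0.12 to 0.28, so changes of any actin past 0.28 log2 in either direction lay outside them.

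Srf and Mkl2 changed in opposite directions with OHT+dox, and Mkl1 was measured with a wide error. Srf was at 824 ± 42.4 normalized counts in OHT cells, 863 ± 44.2 in dox cells and 956 ± 48.6 in OHT+dox cells, against 803 ± 41.4 in mock cells. It rose by 0.25 ± 0.10 in OHT+dox against mock (adjusted p = 0.0417), a call lost when groups were rescaled to equal summed counts (adjusted p = 0.0629), and differed by 0.04 ± 0.11 with OHT (adjusted p = 0.856) and 0.10 ± 0.10 with dox (adjusted p = 0.634). Against the groups given 1 agent, Srf in OHT+dox cells differed by 0.21 from OHT (adjusted p = 0.276) and by 0.15 from dox cells (adjusted p = 0.348), so its level with both agents was not shown to differ from that with either. Mkl2 was at 1022 ± 58.9, 1150 ± 65.9 and 866 ± 50.4 in OHT, dox and OHT+dox cells, against 1243 ± 71 in mock cells, so its lowest level was in the doubly treated cells. It fell by 0.52 on the log2 scale in OHT+dox against mock (SE 0.12, adjusted p = 6.11e-05) and by 0.41 against dox (SE 0.12, adjusted p = 0.00448). With OHT alone it was -0.28 ± 0.12 (adjusted p = 0.0679) and with dox alone -0.11 ± 0.12 (adjusted p = 0.649), and OHT+dox against OHT was -0.24 (adjusted p = 0.285). Mkl1 was at 1017 ± 141, 1309 ± 182 and 1024 ± 142 in OHT, dox and OHT+dox cells, against 1224 ± 170 in mock cells. Its fold changes against mock, -0.27 (adjusted p = 0.573), 0.10 (adjusted p = 0.9) and -0.26 (adjusted p = 0.502) in that order, carried an SE of 0.28 beside a dispersion (relative variance beyond counting noise) of 0.0569. A change of the size measured for Mkl2 could well have been missed for Mkl1.

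Of the LIM domain proteins, the Pdlim genes fell with OHT+dox and the Fhl genes did not pass the test against mock. Pdlim7 was at 452 ± 25.4 normalized counts in OHT cells, 547 ± 30.2 in dox cells and 380 ± 21.9 in OHT+dox cells, against 567 ± 31.2 in mock cells, with the groups given OHT below the other groups. It fell in OHT against mock (-0.33 ± 0.11, adjusted p = 0.0216), in OHT+dox against mock (-0.58 ± 0.11, adjusted p = 4.09e-06) and in OHT+dox against dox (-0.53 ± 0.11, adjusted p = 8.7e-05), and in dox against mock it was -0.05 ± 0.11 (adjusted p = 0.859). Pdlim5, a relative that tethers kinases to alpha-actinin, was at 2740 ± 100, 2961 ± 108 and 2581 ± 94.5 in OHT, dox and OHT+dox cells, against 2957 ± 108 in mock cells, and fell by 0.20 with OHT+dox against mock (adjusted p = 0.0243) and against dox (adjusted p = 0.0394). Fhl2, a LIM-only protein that itself binds SRF, was at 828 ± 36, 1107 ± 46.8 and 1012 ± 43.1 in OHT, dox and OHT+dox cells, against 944 ± 40.5 in mock cells. It was called in no comparison with mock but rose by 0.29 ± 0.09 in OHT+dox against OHT (adjusted p = 0.0251). Fhl1, its relative in muscle, lay between -0.12 and -0.02 log2 of mock in the 3 treated groups and was not called.

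Among the myosin II genes, the light chain kinase and 1 heavy chain changed. Mylk, the calcium-activated kinase that starts contraction by phosphorylating the regulatory light chain, was at 1692 ± 84.6 normalized counts in OHT cells, 1667 ± 83.4 in dox cells and 1404 ± 70.8 in OHT+dox cells, against 1916 ± 95.4 in mock cells. Every treated group lay below mock, and OHT+dox lowest. The fall with OHT+dox, to 0.73 of mock (-0.45 ± 0.10, adjusted p = 7.35e-05), passed the test, whereas -0.18 with OHT (adjusted p = 0.215) and -0.20 with dox (adjusted p = 0.216) did not. The direct differences of OHT+dox from OHT, -0.27 (adjusted p = 0.111), and from dox cells, -0.25 (adjusted p = 0.0676), did not pass either. Myh10 was at 5542 ± 198, 4970 ± 178 and 5232 ± 187 in OHT, dox and OHT+dox cells, against 5745 ± 205 in mock cells, and its fall with dox was lost when fold changes were centred on the median gene (adjusted p = 0.0518). Myh9, the heavy chain of myosin IIA, lay at -0.11, 0.03 and -0.02 log2 of mock with OHT, dox and OHT+dox, and was not called. The light chains Myl9, Myl6, Myl12a and Myl12b were not called against mock. Myl12b was counted at 84.9 to 112, with an SE of 0.21 in each comparison with mock. Myl12a and Myl12b are near-identical paralogs, so how reads shared by both were counted could divide signal between them.

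The remaining filament proteins gave no call against mock apart from Fscn1. None of Tagln, Tagln2, Cnn1, Cnn2, Cnn3 and Cald1, the transgelins, calponins and caldesmon that decorate actin in contractile cells, was called in any comparison. Tagln was at 1091, 1273 and 1150 normalized counts in OHT, dox and OHT+dox cells, against 1142 in mock cells. Cnn1 was counted at only 13.6 to 14.8, with an SE of 0.52 and a 95% interval of -0.90 to 1.12 for OHT+dox against mock, so this gene was close to unmeasured. None of the tropomyosins Tpm1, Tpm2, Tpm3 and Tpm4, which line the filament groove and gate myosin, was called against mock. Their median was -0.03 with OHT, 0.17 with dox and 0.09 with OHT+dox. Among the crosslinkers and adhesion links, Actn1, Actn4, Flna, Flnc and Vcl were not called against mock. All 6 of that group had positive fold changes with dox, from 0.03 for Flna to 0.29 for Fscn1. Flnc, filamin C, came nearest to a call with OHT+dox (0.18, adjusted p = 0.0536). Rock1 lay between -0.09 and 0.03 log2 of mock in the 3 treated groups and was not called.

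**Figure D2:**
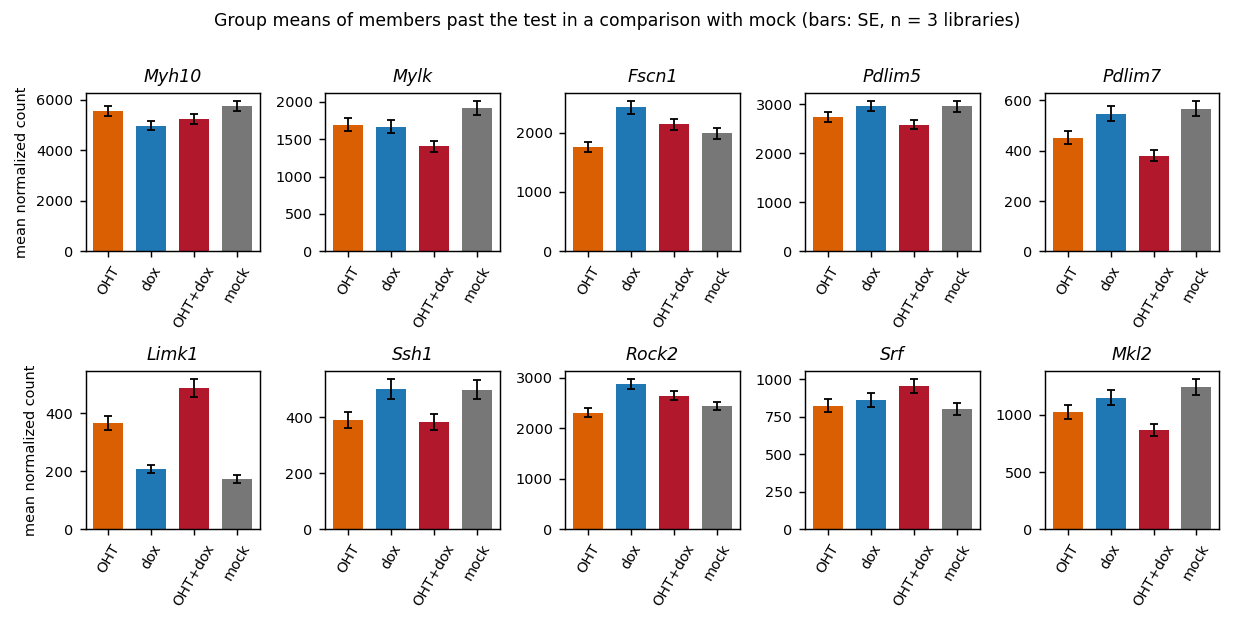
Group means in normalized counts of the 10 members called in a comparison with mock, for OHT, dox, OHT+dox and mock cells (bars from 0, error lines SE, n = 3 libraries). Limk1 stands at 367 and 487 with OHT and OHT+dox against 173 in mock cells, while Pdlim7, Mkl2 and Mylk are lowest in OHT+dox cells, at 380, 866 and 1404.

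How MycER and YAP S127A cells differ from each other was asked directly, and most members lay lower with MycER. In OHT against dox cells 8 members were lower and 1, Limk1, was higher (0.82 ± 0.14, adjusted p = 4.88e-07), 21.4% of members, against 16.0% of all tested genes. None of the 8 lower differences exceeded 0.5 log2, and with all SEs scaled by 0.692, an alternative width explained with the interaction, 17 members were called lower and 2 higher, while 3977 of all genes were called, 2204 of them higher. The lower calls alone were 19.0% of members, against 7.44% of all genes called lower and 8.52% called higher. The members' median was -0.13, against 0.02 over all genes, and 36 of 42 lay below 0, against 45.6% of all genes. By role, the median was lowest for crosslinkers and adhesion links, at -0.32. It was -0.22 for Rock1 and Rock2, -0.19 for LIM domain proteins, -0.17 for Srf, Mkl1 and Mkl2, and -0.16 for tropomyosins. For calponins, transgelins and caldesmon it was -0.13, and for filament turnover and assembly -0.13. For myosin II chains and kinase it was -0.12, and for actin isoforms -0.09. The comparison does not by itself say which of the groups moved from mock. Against mock, 36 members lay below 0 and 6 above with OHT (median -0.07). With dox, 32 lay above 0 and 10 below (median 0.07), and 27 members were negative with OHT and positive with dox. Over all genes, 6274 of 12259 lay below 0 with OHT and 5953 lay above 0 with dox. Most of these member shifts did not pass the test.

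Crosslinkers and adhesion proteins led the differences. Fscn1 was at 1756 ± 79.5 normalized counts in OHT cells, against 2427 ± 108 in dox cells, a difference of -0.47 ± 0.09 (adjusted p = 9.95e-06). Actn1, the alpha-actinin of stress fibers and focal adhesions, was at 1456 ± 80.6 in OHT cells, against 1910 ± 105 in dox cells (-0.39 ± 0.11, adjusted p = 0.00522). Actn4, its relative, was at 1998 ± 97.2 in OHT cells, against 2503 ± 121 in dox cells (-0.33 ± 0.10, adjusted p = 0.00934). Vcl, vinculin, which couples focal adhesions to actin under load, was at 3703 ± 138 in OHT cells, against 4579 ± 169 in dox cells (-0.31 ± 0.08, adjusted p = 0.000771). Thus 4 of the 6 genes of that group were lower, and Flna and Flnc, at -0.12 and -0.14, were not called.

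The other lower genes were spread over the roles. Fhl2 was lower in OHT than in dox cells (828 ± 36 against 1107 ± 46.8 normalized counts, -0.42 ± 0.09, adjusted p = 3.95e-05). Rock2 was at 2310 ± 81.4 in OHT cells, against 2879 ± 100 in dox cells (-0.32 ± 0.07, adjusted p = 0.000166). The regulatory light chain gene Myl12a, at 853 ± 39 in OHT cells against 1028 ± 46.3 in dox cells, differed by -0.27 (adjusted p = 0.0267). Tpm1 was at 2852 ± 112 in OHT cells, against 3314 ± 129 in dox cells (-0.22, adjusted p = 0.0422), a call lost with groups rescaled to equal summed counts (adjusted p = 0.0743). Of these 8 genes, 6 were called in no comparison with mock, and all 8 had their OHT+dox level between those of OHT and dox cells. In 25 of the 42 members the OHT+dox level lay between those of OHT and dox cells, whichever of these was higher. The 8 were chosen by their gap between OHT and dox.

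**Figure D3:**
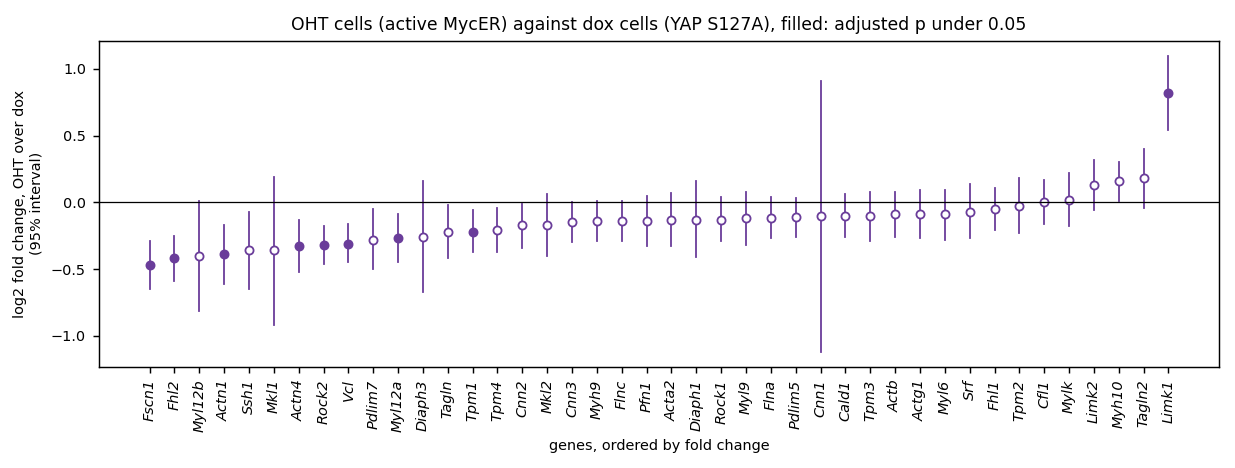
Log2 fold change of OHT over dox cells for the 42 tested members (points, with 95% intervals as lines), ordered from lowest to highest. Filled points passed the test: the 8 filled points on the left, from Fscn1 at -0.47 to Tpm1 at -0.22, are lower with OHT, and Limk1 at 0.82 is higher.

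The promoters of the 8 lower genes were compared with the motif counts above. All 8 had a window. Vcl and Fhl2 held a CArG box, and Vcl, Actn4, Tpm1 and Myl12a held GGAATG. Stretches with GGAATG (or its reverse complement CATTCC) before the start are shown for the first 3 of those and for Mkl2 (Mrtfb in RefSeq), with the hexamer in capitals.
Vcl (chr14:20929230-20929285, + strand): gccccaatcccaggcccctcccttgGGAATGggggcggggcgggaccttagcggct
Actn4 (chr7:28962518-28962573, - strand): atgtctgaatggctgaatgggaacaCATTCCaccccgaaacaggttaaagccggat
Tpm1 (chr9:67049239-67049294, - strand): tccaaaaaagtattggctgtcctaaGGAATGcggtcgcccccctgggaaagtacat
Mkl2 (chr16:13358315-13358370, + strand): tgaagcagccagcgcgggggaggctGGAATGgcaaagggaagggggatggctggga
The median changes were close between members with and without a CArG box. The 8 members with a box had a median of -0.10 in OHT against dox cells, 2 of them called lower, and the 30 with a window but no box a median of -0.14, with 6 called lower and 1 higher. With OHT+dox against mock the medians were 0.03 with a box and 0.04 without.

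**Figure D4:**
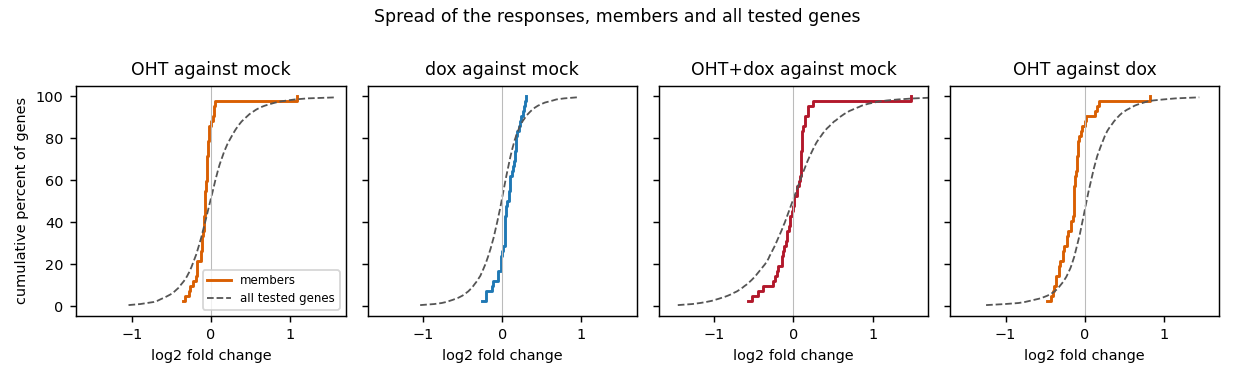
Cumulative percent of genes by log2 fold change for the 42 tested members (solid steps) and all 12259 tested genes (dashed), in OHT, dox and OHT+dox against mock and in OHT against dox cells. The members' curves rise more steeply than those of all genes in the comparisons with mock, and in OHT against dox the members' curve lies to the left, with a median of -0.13 against 0.02.

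Adding the second agent asked whether the response to one depends on the other. In OHT+dox against OHT cells, where YAP S127A was added to active MycER, 2 members rose and none fell, 4.76% of members and also 4.76% of all tested genes (2.62% higher and 2.14% lower). They were Fhl2 and Fscn1. Fscn1 rose by 0.29 ± 0.09 (adjusted p = 0.043), a call lost with equal summed counts (adjusted p = 0.0707) or with the prior SD used in recovering the fold changes 10% smaller (adjusted p = 0.0515). In OHT+dox against dox cells, where MycER was added to YAP S127A, 1 member rose and 5 fell, 14.3% of members, against 21.4% of all tested genes (12.6% higher and 8.83% lower). Limk1 rose, and Pdlim7, Mkl2, Ssh1, Pdlim5 and Actn1 fell. Actn1 was at 1556 ± 85.9 normalized counts in OHT+dox cells, against 1910 ± 105 in dox cells (-0.30 ± 0.11, adjusted p = 0.0418), a call lost with that smaller prior (adjusted p = 0.0508).

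Most members kept the sign of their change to 1 agent when the other was present. The dox step was measured once in dox against mock and once in OHT+dox against OHT cells, which share no library. It had the same sign in 39 of 42 members (92.9%), with Pearson's r = 0.87 and Spearman's coefficient = 0.91 across genes, against 80.2% of all tested genes (r = 0.72, Spearman 0.73). The OHT step, in OHT against mock and OHT+dox against dox cells, had the same sign in 38 of 42 members (90.5%, r = 0.97, Spearman 0.85), and without Limk1 in 37 of 41 (r = 0.91, Spearman 0.84), against 84.1% of all genes (r = 0.84, Spearman 0.83). The points of these correlations are genes of the same libraries and not replicates. The interaction, the amount by which OHT+dox departs from the sum of the separate log2 changes, ran from -0.20 for Pdlim7 to 0.14 for Limk1. No member passed the test, 0.00% of members and 0.00% of all genes, and at an unadjusted p under 0.05 there were 0 members and 129 genes. The z values of the interaction (each estimate over its SE) over all genes had an SD of 0.692 where 1 is the spread that exact SEs and no interaction would give. An SD under 1 can mean that the SEs were too wide, in which case calls would be too few.

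Other genes of the actin machinery were taken from 4 lists of known function. Their counts stand beside shares over all tested genes of 12.7% higher and 8.95% lower with OHT, 6.32% higher and 4.58% lower with dox, and 20.8% higher and 19.2% lower with OHT+dox. Of the 9 Arp2/3 complex genes, which nucleate branched filaments, none was called with OHT, 1 rose with dox and 2 rose with OHT+dox. Actr2, the Arp2 subunit, rose by 0.29 with dox (adjusted p = 0.0154) and was lower in OHT than in dox cells (-0.31, adjusted p = 0.00531). Of 14 capping, ENA/VASP and severing genes, 3 fell with OHT, 1 fell with dox, 4 fell with OHT+dox and none rose. Capg, which caps the growing end of filaments, was at 514 ± 26.3, 562 ± 28.4 and 430 ± 22.5 normalized counts in OHT, dox and OHT+dox cells, against 645 ± 32.2 in mock cells, and fell by 0.59 with OHT+dox (adjusted p = 2.15e-07). Of 5 myosin phosphatase genes, none was called with OHT, 1 fell with dox, and 1 rose and 2 fell with OHT+dox, where 40.0% of all tested genes were called. Ppp1r12b, a targeting subunit of that phosphatase, was at 271 ± 18.5, 247 ± 17.1 and 208 ± 14.7, against 329 ± 21.9 in mock cells, and fell by 0.66 with OHT+dox (adjusted p = 1.72e-05).

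The last list held other genes known as MRTF-SRF targets. Of its 14 genes 10 were tested, and 5 fell with OHT (8.95% of all genes), 3 rose with dox (6.32% of all genes), and 1 rose and 6 fell with OHT+dox (20.8% and 19.2% of all genes). The 3 that rose with dox were Ankrd1, Cyr61 (by 0.33, adjusted p = 0.00264) and Ctgf, the known YAP target used above. No other tested gene of the list rose with dox. Ctgf was also the 1 that rose with OHT+dox (by 0.45, adjusted p = 3.39e-06). Tgfb1i1, the focal adhesion protein Hic-5, was at 298 ± 19.3, 406 ± 25.4 and 235 ± 15.8 normalized counts in OHT, dox and OHT+dox cells, against 452 ± 28 in mock cells. It fell by 0.60 with OHT (adjusted p = 5.79e-05) and by 0.95 with OHT+dox (adjusted p = 1.9e-11). Lmod1, the muscle filament nucleator leiomodin, fell by 1.04 with OHT+dox against mock (adjusted p = 1.87e-05). Ankrd1, a muscle ankyrin-repeat protein and a target of both SRF and YAP, was at 11.1 ± 2.56, 66.5 ± 11.2 and 32.6 ± 5.97, against 27.5 ± 5.17 in mock cells. It fell by 1.31 with OHT (adjusted p = 0.0148) and rose by 1.27 with dox (adjusted p = 0.00774). In OHT against dox cells the median of this list was -0.35, beside -0.18 for Arp2/3, -0.12 for capping and severing, -0.01 for myosin phosphatase and -0.13 for the members. The 3 genes that rose with dox were the lowest of the list there (Ankrd1 -2.58, Ctgf -0.96 and Cyr61 -0.49) and pull its median down. Of the 10 tested genes, 9 lay below 0 and 1, Lmod1, lay above.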

How the data were processed

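RNA-seq was done on 12 libraries in 4 groups. Libraries were prepared from total RNA with the TruSeq kit v2, which does not keep strand, so reads from overlapping antisense genes cannot be told apart. The submitters' processing notes name TopHat2 2.0.8, SAMtools, featureCounts 1.4.5-p1 and DESeq2 with mouse build mm9. For the gene annotation and the versions of the other tools, nothing was given in the sources used here. A single table of 21671 genes was deposited by the authors. For each of 3 comparisons with mock the deposited table gives, as made by the authors, a signal (counts divided by size factors, averaged over 6 libraries), a shrunken log2 fold change and an adjusted p-value. Per the file headers it also flags genes that passed the authors' criteria, which were not used. None of the authors' fold changes, p-values or calls is printed. They served only to recover group means and errors, since the table holds no count of a single library and the read totals are unknown.

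The Benjamini-Hochberg adjustment was undone by rank, each p-value was turned into z, and the shrunken standard error was taken as the fold change over z. Shrinkage was undone with a normal prior whose SD was 0.44 (OHT), 0.33 (dox) and 0.62 (OHT+dox). Group means followed from the mean normalized count and the fold change. The mock mean was averaged over the comparisons after alignment by 0.0306 and 0.0019 log2, and the dispersion was averaged over the comparisons. Where p was above 0.9, the standard error came from genes of like count. For the members, fold changes with the averaged mock mean differed by at most 0.00567 from the unshrunken fold change of the same comparison. Both were calculated from the same libraries, so this checks the arithmetic of the recovery and is no replication. Differences between groups and the interaction were tested with two-sided Wald tests over 12259 genes with Benjamini-Hochberg adjustment (Python 3.11.15, numpy 2.4.6, scipy 1.17.1, pandas 2.3.3). These are large-sample tests on 3 libraries a group and rest on the recovered errors.

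The members and lists were chosen with earlier results of these data known. Named in full were members past 0.05 and 0.5 log2 against mock, the actins, Srf, Mkl1 and Mkl2, and from each other list up to 3 genes past the same limits. Other members, and genes of the lists below 0.5 log2, were named after their values were seen. One further list is not reported here. Promoter windows are from RefSeq (GRCm38.p6), whose coordinates were not used with the mm9 table. The alternatives were each comparison's own standard error, scaled errors, another scaling, centring, a mean count minimum of 50, a prior SD 10% smaller or larger, and a fold minimum.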

Additional observations from a re-analysis of the deposited data

How the results depend on the processing

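No direction of a member's change that passed the test reversed under any alternative that was run, but these alternatives could hardly reverse one. Most altered only the errors, the genes tested or the limits for a call. Equal sums shifted each group by 0.01 log2, and centring moved fold changes by at most 0.02. The alternatives therefore bear on the calls and not on the directions. Multiplying all SEs by 0.692, the SD of the interaction z values over all genes, raised the members called from 2 to 9 in OHT against mock, from 3 to 13 in dox against mock, from 7 to 16 in OHT+dox against mock, from 2 to 12 in OHT+dox against OHT, from 6 to 10 in OHT+dox against dox and from 9 to 19 in OHT against dox. Over all genes the calls in those comparisons were then 4913 instead of 2651, 3511 instead of 1336, 6946 instead of 4899, 2360 instead of 583, 4902 instead of 2622 and 3977 instead of 1957, and 35 instead of 0 for the interaction, none of them a member. A fold minimum of 0.5 log2 left 1, 0, 3, 0, 2 and 1 members in the same comparisons and 1147, 494, 2537, 234, 1110 and 889 genes. In OHT+dox against OHT, equal sums left 1 member and a prior SD 10% smaller left 1, in both cases Fhl2 without Fscn1. Equal sums also moved the share of higher calls over all genes there to 45.5%, against 55.1%.

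Of the changes of single members, equal sums lost 3 calls, centring lost 1 and gained 2, the smaller prior lost 2, the larger prior gained 1, the mean count minimum gained 2 and each comparison's own standard error gained 1. Among the gains were Limk1 in OHT+dox against OHT with the mean count minimum (adjusted p = 0.0497) and with the larger prior (adjusted p = 0.0433). Leaving out each replicate and TMM normalization were not run, because the deposited table holds no value per library. No paired analysis was possible because the table gives no value for a numbered replicate. Without library values, no library that stands apart could be found, and the part of a batch was not tested.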
